A study of Danio rerio with 33 samples.

Results

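The subject here is a set of 6 mature miRNAs known from the pancreas, namely dre-miR-375, dre-miR-7a, dre-miR-7b, dre-miR-216a, dre-miR-216b and dre-miR-217 of zebrafish. They were taken by name, as every entry of the deposited table named miR-375, miR-7, miR-216 or miR-217 with or without a letter, which leaves out the let-7 family. This gave 6 of the 247 known mature miRNAs in the table. The rule used no measured value, though earlier results of these data were known when it was set.

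Small RNA was sequenced from Female Gut, Male Gut, Female Liver, Male Liver, Female Brain, Male Brain, Ovary, Testis, Eye, Heart and Embryo. All fish were wild type of a Singapore strain, bought from a local supplier, with no treatment and no transgene. An adult replicate was RNA pooled over several fishes, and an Embryo replicate was a pool of early embryonic stages and juveniles. There were 3 libraries per group and 2 for Heart, 32 in all, and 1 further Heart sample is not analysed here. The labels give no sex for Eye and Heart, for which the text of the study names male fish, and no age for the adults. No pancreas library was among the groups, and neither source says whether tissues with the same replicate number came from the same fishes.

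miRNAs are short RNAs that pair through their seed with messages and lower their output. In mammals miR-375 and miR-7 are abundant in the hormone producing cells of the islets, where miR-375 is known for restraining insulin release, and miR-7 is also known from neurons and neuroendocrine cells. In zebrafish miR-375 is known from the islet and the pituitary, and its loss in embryos disturbs islet formation. miR-216a, miR-216b and miR-217 are known in mammals from the acinar cells, which make digestive enzymes. The exocrine pancreas of the adult zebrafish is diffuse and lies in the mesentery along the intestine and near the liver. In the RefSeq gene table of assembly GRCz12tu, the loci of miR-217, miR-216a and miR-216b followed each other with 0 other genes between them, whereas miR-375 had 2 annotated loci, miR-7a had 3 and miR-7b had 1.

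The authors deposited read counts per mature miRNA and the same counts scaled per library with TMM (trimmed mean of M-values), and levels below are these normalized counts. Total counts per library were 277699 to 11732555. All 32 libraries were nearest to a library of their own group, with correlations between replicates of at least 0.978 over all miRNAs. The study had dropped a Heart replicate for clustering apart from the rest, so for Heart this agreement was partly set beforehand. Reads of the near-identical pairs miR-7a and miR-7b, and miR-216a and miR-216b, could be counted on either member, so the value of a single member is uncertain in that respect. In tissue pools, fewer cells of a type and less RNA per cell cannot be told apart.

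The labelled tissues were set against markers. miR-122, the hepatocyte miRNA, averaged 105502 in Female Liver and 40564 in Male Liver. It also reached 9475 in Female Gut and 2183 in Male Gut. The 5 miRNAs of the intestinal list summed to 260903 to 317423 in Female Gut and 300166 to 373806 in Male Gut. They also summed to 138271 to 168443 in Female Liver and 121001 to 174348 in Male Liver, although miR-192 and miR-194 of that list are also known from liver in mammals. The neural list summed to 191184 to 212627 in Female Brain and 186892 to 236653 in Male Brain. Both Heart libraries held the sensory list (miR-96, miR-182-5p and miR-183) at 59082 and 72237, against 83130 to 86675 in Eye and at most 3553 in any other group. The muscle list summed to 8077 and 9231 in these Heart libraries, below the 9592 to 10071 of Embryo. Of that list miR-499, known from heart and slow muscle, was at 1848 and 1600 in the Heart libraries and at most 254 in any other library. Heart levels are therefore those of libraries that carried a heart marker together with the sensory miRNAs of Eye, and values that rest on them are also given without them.

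Levels of the 6 miRNAs differed widely between tissues. Between the highest and the lowest sample group, mean normalized counts differed 25.6-fold for miR-375, 148-fold for miR-7a, 30.0-fold for miR-7b, 21.6-fold for miR-216a, 18.8-fold for miR-216b and 28.6-fold for miR-217. Without the Heart libraries the span of miR-7a was 97.6-fold, with Eye as the lowest group, and those of the other members were as before. These low ends rest on few reads, at 5 to 28 per Eye library for miR-7a. For miR-7b the lowest group was Female Liver, at 2 to 11 reads per library, so both spans are rough. Both miR-7 forms were highest in brain, and the other 4 members in gut, except that with library size alone as the scaling miR-216b was highest in Male Liver, at 3138 CPM.

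**Figure D1:**
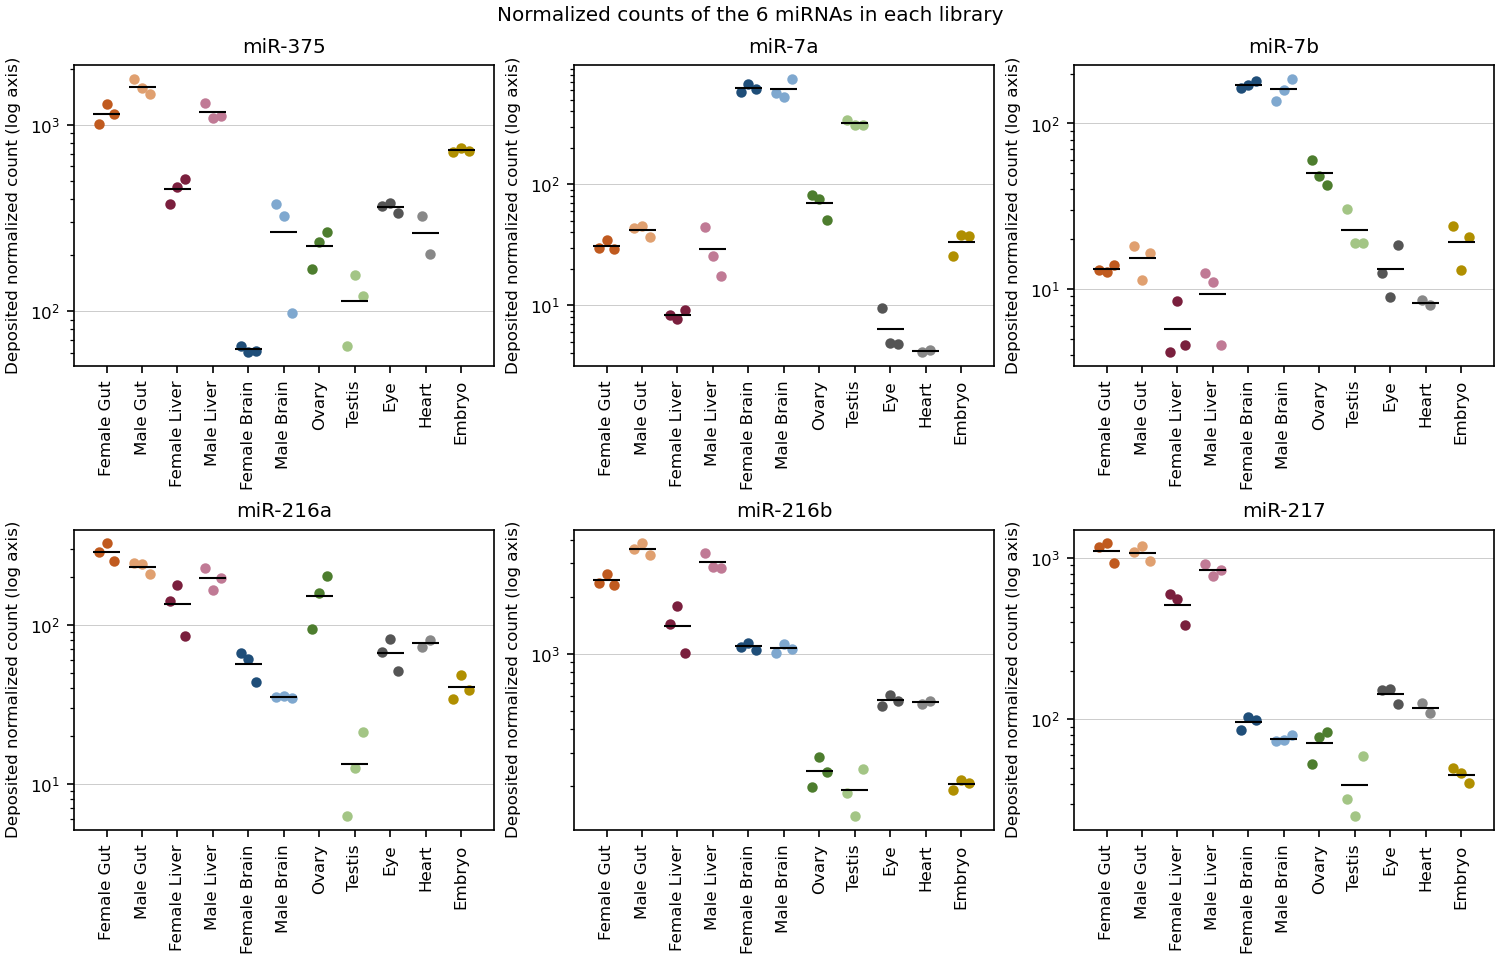
Deposited normalized counts (log axis, a different range in each panel) of the 6 miRNAs in 32 libraries, 1 point per library, with group means as horizontal lines. By group mean, miR-375, miR-216a, miR-216b and miR-217 sit highest in gut and Male Liver, miR-7a and miR-7b in brain, and miR-7a is also high in Testis at 311 to 340 normalized counts.

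miR-375, the islet miRNA, was a mid-abundance miRNA in the gut. Female Gut libraries had 1008, 1298 and 1146 normalized counts, and Male Gut libraries had 1765, 1578 and 1458. Female Liver libraries had 374.7, 466 and 512, against 1318, 1083 and 1112 in Male Liver. The Female Liver libraries lay below all Male Liver libraries, while Male Liver and Female Gut overlapped. How many of all miRNAs lacked overlap between groups was not counted, for this pair or for any below. A lack of overlap is thus not shown to be particular to the members.

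In brain, miR-375 had 65.5, 60.6 and 61.6 normalized counts in Female Brain, against 377, 325 and 97.8 in Male Brain. The 3 Female Brain libraries agreed closely and the groups did not overlap, but the third Male Brain library was far below the other 2. Embryo held 714, 748 and 726, a level between those of Female Gut and Female Liver. Eye had 367, 383 and 336, and the Heart libraries 324 and 203. The gonads were lower, with 168, 234 and 267 in Ovary and 65.3, 156 and 121 in Testis.

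The order of miR-375 by mean level was Male Gut, Male Liver, Female Gut, Embryo, Female Liver, Eye, Male Brain, Heart, Ovary, Testis and Female Brain. No neighbours in this order were called different when tested against a log2 fold change of 1 (edgeR quasi-likelihood fit with glmTreat, Benjamini-Hochberg over 238 miRNAs, with 0.05 as the largest adjusted p for a call). A call thus required a change clearly beyond doubling or halving, and a pair that missed it is not shown to be alike. Its mean of 1600 in Male Gut ranked it 55th among the 247 miRNAs there, and its mean of 62.6 in Female Brain ranked it 155th.

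miR-7a was highest in the brain libraries. Female Brain libraries had 574, 678 and 618 normalized counts, and Male Brain libraries 565, 531 and 742, with overlap. Testis followed with 340, 311 and 311, against 81.5, 75.9 and 51.2 in Ovary. Every Testis library was thus above every Ovary library and below every brain library.

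In the digestive organs miR-7a was scarce. Female Gut libraries had 29.6, 34.5 and 29.3 normalized counts and Male Gut libraries 43.9, 45.04 and 36.4. Female Liver had 8.33, 7.67 and 9.14, from 10, 10 and 4 reads, against 44.4, 25.6 and 17.3 in Male Liver, from 135, 35 and 19 reads. The Female Liver libraries lay below all Male Liver libraries, on few reads. Eye (9.44, 4.89 and 4.82, from 28, 6 and 5 reads) and the Heart libraries (4.12 and 4.27) were lowest, and Embryo had 25.7, 37.9 and 37.4.

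miR-7b followed miR-7a at a lower level in most groups. Female Brain libraries had 165, 170 and 181 normalized counts and Male Brain libraries 138, 160 and 186, again with overlap. Ovary was next with 59.9, 47.9 and 42.5, against 30.4, 18.8 and 18.8 in Testis. For miR-7b the gonads were thus in the opposite order to miR-7a, and their libraries did not overlap. All other groups were between 4.16 and 24.0, and the lowest count was 2 reads in a Female Liver library.

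A few steps in the order of the miR-7 forms were called. For miR-7a, Testis was above its lower neighbour Ovary by 2.24 ± 0.24 (log2, SE; adjusted p = 9.02e-06, edgeR glmTreat) and Male Liver above Female Liver, described below. For miR-7b, Male Brain was above its lower neighbour Ovary by 1.72 ± 0.25 (adjusted p = 0.00154, edgeR glmTreat), where 32.8% of all miRNAs were higher in Male Brain. The step of miR-7a between Male Brain and Testis was 0.94 ± 0.21 and was not called (adjusted p = 0.486, edgeR glmTreat), although the libraries did not overlap.

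Among miR-216a, miR-216b and miR-217, known in mammals from acinar cells, miR-216b was the most abundant. Female Gut libraries had 2368, 2650 and 2318 normalized counts, and Male Gut libraries 3564, 3840 and 3320. Female Liver libraries had 1429, 1790 and 1010, against 3394, 2888 and 2853 in Male Liver. In both organs all female libraries were below all male libraries, a separation that was not counted over all miRNAs. In Male Gut its mean of 3575 ranked it 28th among the 247 miRNAs.

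Brain also held miR-216b at a substantial level. Female Brain libraries had 1086, 1144 and 1053 normalized counts and Male Brain libraries 1014, 1125 and 1061, with overlap. Both also overlapped with Female Liver, and Female Liver over Female Brain was 0.37 ± 0.17 (log2, SE), which was not called. Eye had 531, 609 and 563 and the Heart libraries 545 and 565. Ovary (199, 284 and 237), Testis (184, 139 and 247) and Embryo (190.0, 215 and 207) overlapped at the low end.

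miR-217 was highest in gut, and far lower outside gut and liver. Female Gut libraries had 1176, 1236 and 926 normalized counts, and Male Gut libraries 1083, 1179 and 962, with overlap. Female Liver libraries had 597, 557 and 384, against 919.9, 777 and 846 in Male Liver. The liver groups did not overlap. Female Brain libraries had 86.3, 103 and 98.5 and Male Brain libraries 73.2, 74.2 and 80.0, again without overlap.

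The step from Female Liver down to Eye, which had 151, 155 and 124 normalized counts, was the only neighbouring step of miR-217 that was called, at 1.84 ± 0.20 (log2, SE; adjusted p = 6.18e-05, edgeR glmTreat), where 25.2% of all miRNAs were higher in Female Liver. It separated the 4 gut and liver groups from all others. Below it came the Heart libraries with 127 and 109, the brain groups, Ovary with 52.7, 77.6 and 83.3, Embryo with 49.6, 46.1 and 40.5, and Testis with 32.2, 25.1 and 59.6.

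miR-216a, the other miR-216 form, was lower than miR-216b in every library. Female Gut libraries had 286, 325 and 252 normalized counts, and Male Gut libraries 245, 241 and 208, without overlap. Female Liver libraries had 141, 177 and 84.5, against 226, 164 and 196 in Male Liver, with overlap. Female Brain libraries had 66.3, 61.1 and 43.3, against 34.9, 35.5 and 34.8 in Male Brain, without overlap.

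In the gonads miR-216a ran over a wide range. Ovary had 93.5, 158 and 203 normalized counts, from 39, 96 and 234 reads, against 6.26, 12.6 and 21.1 in Testis, from 7, 18 and 28 reads. Ovary was thus within the range of the liver groups, and Testis was the lowest group of all. Eye had 67.1, 81.5 and 51.1, the Heart libraries 72.7 and 79.8, and Embryo 34.2, 47.9 and 38.9. No neighbouring step in the order of miR-216a or miR-216b was called.

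The share of the members among themselves also differed between tissues. miR-216b made up 48.6% of the summed normalized count of the 6 in Female Gut, 54.7% in Male Gut, 55.3% in Female Liver and 57.5% in Male Liver. miR-375 made up 68.0% in Embryo. In Testis miR-7a made up 46.2%, against 9.0% in Ovary, and miR-216a made up 1.9%, against 18.4% in Ovary. Female Brain and Male Brain differed mainly in miR-375, with means of 3.0% and 12.0%. Its share was 2.7% to 3.2% in the Female Brain libraries and 4.4% to 17.1% in the Male Brain libraries.

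**Figure D2:**
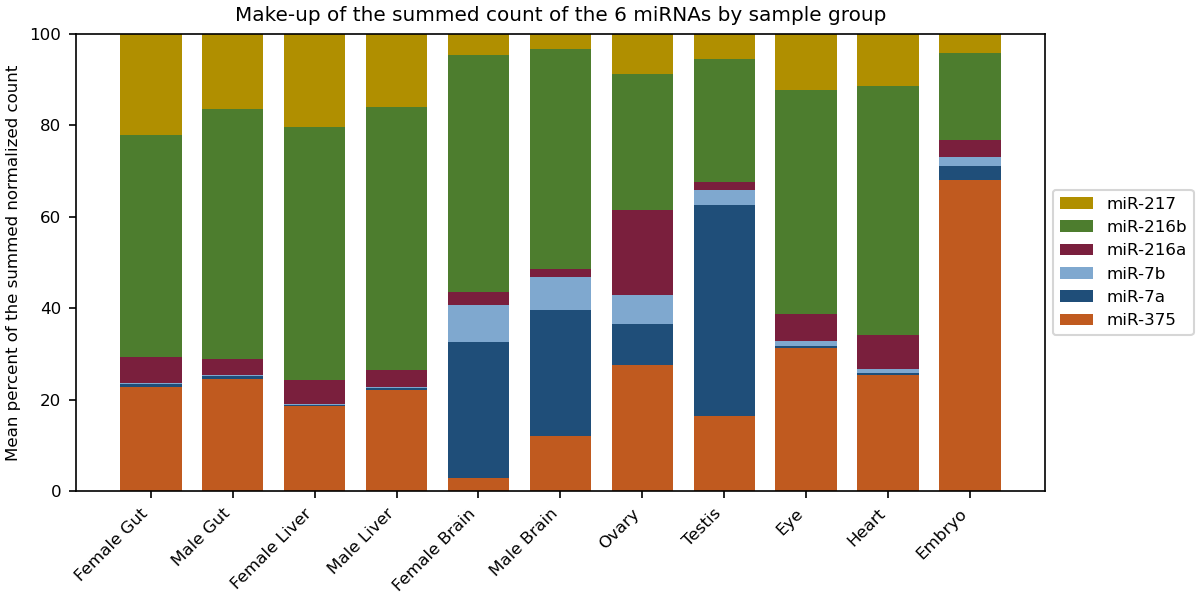
Mean percent of the summed normalized count of the 6 miRNAs that each made up, per sample group (3 libraries, 2 for Heart). miR-216b leads in gut, liver, brain, Eye, Heart and Ovary, miR-7a in Testis at 46.2% and miR-375 in Embryo at 68.0%.

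All 6 members together were a small part of the reads. They took 0.426% to 0.453% of counts in Female Gut and 0.511% to 0.531% in Male Gut. The share was 0.138% to 0.183% in Female Liver, against 0.509% to 0.567% in Male Liver. As summed normalized counts the members had 2554, 3007 and 2004 in Female Liver, against 5915, 4949 and 5029 in Male Liver. Female Liver libraries were below Male Liver libraries on both measures, and the gap was smaller on the normalized scale. A share of counts is a scaling by library size alone.

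Gut was compared with brain to set an organ next to the pancreas against one far from it. Female Gut against Female Brain gave calls for 5 of 6 members, of which 3 rose and 2 fell, where 64.7% of all 238 miRNAs tested were called. Male Gut against Male Brain gave calls for 6 of 6, of which 4 rose and 2 fell, where 62.2% of all miRNAs were called. A call between these organs was thus the rule rather than particular to the members.

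miR-217 rose by 3.53 ± 0.22 (log2, SE) in Female Gut over Female Brain and by 3.82 ± 0.22 in Male Gut over Male Brain (adjusted p = 1.02e-12 and 2.33e-13, edgeR glmTreat). miR-375 rose by 4.20 ± 0.34 in Female Gut over Female Brain (adjusted p = 1.43e-10) and by 2.60 ± 0.31 in Male Gut over Male Brain (adjusted p = 2.67e-06, edgeR glmTreat). miR-216a rose by 2.36 ± 0.27 over Female Brain and by 2.73 ± 0.28 over Male Brain (adjusted p = 3.65e-06 and 1.84e-07, edgeR glmTreat). miR-216b rose by 1.74 ± 0.17 in Male Gut over Male Brain (adjusted p = 2.13e-05, edgeR glmTreat). In Female Gut over Female Brain its value was 1.16 ± 0.17, which was not called (adjusted p = 0.0901, edgeR glmTreat).

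Both miR-7 forms went the other way. miR-7a fell by 4.32 on the log2 scale in Female Gut over Female Brain (SE 0.24) and by 3.86 in Male Gut over Male Brain (SE 0.24), and miR-7b fell by 3.70 (SE 0.26) and 3.38 (SE 0.26). The adjusted p-values were at most 2.35e-10 (edgeR glmTreat), and no gut library of either form overlapped with a brain library. How many of all miRNAs lacked such overlap was not counted.

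Gut and liver were much closer. Female Gut against Female Liver gave 1 call among the 6 members, where 23.9% of all miRNAs were called. It was miR-7a, higher in Female Gut by 1.92 ± 0.32 (log2, SE; adjusted p = 0.00573, edgeR glmTreat). Without the second Female Liver library it was 1.72 and was not called (adjusted p = 0.0678, edgeR glmTreat), and the DESeq2 test gave 1.91 (adjusted p = 0.0657).

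The other members had positive values in Female Gut over Female Liver, from 0.79 ± 0.17 for miR-216b to 1.36 ± 0.30 for miR-375 (log2, SE), and the median of the 6 was 1.11, against 0.06 over all miRNAs tested. With library size alone as the scaling, the median over all miRNAs was 0.53 and all 6 members were called, so these counts depend on the scaling. Male Gut against Male Liver gave 0 calls among the 6, where 5.46% of all miRNAs were called. The values there were 0.23 ± 0.16 for miR-216b to 0.62 ± 0.30 for miR-7b, at unadjusted p-values of at least 0.811 (edgeR glmTreat), and DESeq2 also gave 0 calls.

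Female and male fish were compared in each organ. Female Brain against Male Brain gave 1 call among the 6 members, where 3.78% of all miRNAs were called. It was miR-375, which fell by 2.08 on the log2 scale (SE 0.32; adjusted p = 0.00767, edgeR glmTreat) in Female Brain. Without the first Male Brain library the value was -1.75 and was not called (adjusted p = 0.0990), and without the third it was -2.49 (adjusted p = 9.32e-06, edgeR glmTreat). The DESeq2 test gave -1.96 (adjusted p = 0.0793), and the edgeR fit of both brain groups alone gave -2.08 (adjusted p = 0.128).

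The other members had values in Female Brain over Male Brain from 0.02 ± 0.21 for miR-7a to 0.68 ± 0.28 for miR-216a (log2, SE), with 0 calls. Beside the difference of miR-375, the intestinal list summed to 213 to 297 in Female Brain and 176 to 418 in Male Brain, and the hepatocyte marker miR-122 to 41.6 to 109 in Female Brain and 10.1 to 32.9 in Male Brain. None of the 5 intestinal miRNAs was called. The change of miR-122, 1.64 ± 0.38 (log2, SE), was not called either (adjusted p = 0.279, edgeR glmTreat). Sums of the muscle and epidermal lists were also lower in Female Brain. The muscle list summed to 556 to 746 in Female Brain and 1031 to 1415 in Male Brain, with 1 of 5 called, miR-499 at -2.60 ± 0.46 (adjusted p = 0.00751, edgeR glmTreat). The epidermal list (miR-203a, miR-203b-3p and miR-205) summed to 374 to 459.9 in Female Brain and 702 to 1033 in Male Brain, with 0 of 3 called and a median of -1.57 (log2). The part of other tissue in the difference of miR-375 was not tested.

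Female Gut against Male Gut gave 0 calls among the 6 members, where 2.94% of all miRNAs were called. The values ran from -0.55 ± 0.17 for miR-216b to 0.31 ± 0.25 for miR-216a (log2, SE), at unadjusted p-values of at least 0.816 (edgeR glmTreat), and DESeq2 also gave 0 calls. The libraries of miR-375, miR-7a, miR-216a and miR-216b did not overlap between the sexes in gut, with differences smaller than a doubling. The share of all miRNAs without such overlap was not counted, so this is not shown to be particular to the members. The hepatocyte marker miR-122 was 7977 to 11329 in Female Gut and 1855 to 2355 in Male Gut, at 2.12 ± 0.33 (log2, SE; adjusted p = 0.00698, edgeR glmTreat). The intestinal list overlapped, with 0 of 5 called. The epidermal list had 0 of 3 called and a median of -1.08 (log2). The part of other tissue in the differences of the members was not tested.

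Female Liver against Male Liver gave 1 call among the 6 members, where 15.1% of all miRNAs were called. miR-7a fell by 1.90 on the log2 scale (SE 0.33; adjusted p = 0.00977, edgeR glmTreat) in Female Liver. It was not called without the first Male Liver library (-1.40, adjusted p = 0.231), without the second Female Liver library (-1.67, adjusted p = 0.127, edgeR glmTreat) or in the DESeq2 test (-1.90, adjusted p = 0.122). It was also not called in an edgeR fit of both liver groups alone (-1.72, adjusted p = 0.0801).

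All other members had lower values in Female Liver, from -0.51 ± 0.26 for miR-216a to -1.38 ± 0.30 for miR-375 (log2, SE), none of them called. The median of the 6 was -0.91, against -0.13 over all miRNAs. With library size alone the median over all miRNAs was -0.85 and 4 of the 6 were called, so relative to the other miRNAs the members were lower by less than their own values on that scale show. The hepatocyte marker miR-122 was 77658 to 124047 in Female Liver and 31463 to 45261 in Male Liver, opposite in direction to the members. Its change of 1.38 ± 0.32 (log2, SE) was not called (adjusted p = 0.192, edgeR glmTreat). The epidermal list went with the members, with 3 of 3 called lower in Female Liver and sums of 203 to 345 in Female Liver and 1238 to 1788 in Male Liver. The neural list had 2 of 7 called lower (miR-9-5p and miR-138), with sums of 1117 to 1407 in Female Liver and 1662 to 2244 in Male Liver. In that list miR-219 (1.02 ± 0.53) and miR-128 (0.23 ± 0.16) went the other way without a call. The intestinal list overlapped, with 138271 to 168443 in Female Liver, 121001 to 174348 in Male Liver and 0 of 5 called. The leukocyte list had 1 of 5 called lower (miR-155), with sums of 2148 to 3111 in Female Liver and 3900.3 to 5061 in Male Liver. The part of these other cell types in the differences of the members was not tested.

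Ovary against Testis gave 2 calls among the 6 members, where 30.3% of all miRNAs were called. miR-216a rose by 3.51 ± 0.33 (log2, SE) in Ovary and miR-7a fell by 2.24 (SE 0.24), at adjusted p-values of 3.54e-08 and 9.02e-06 (edgeR glmTreat). Both were also called without any one Ovary or Testis library, with adjusted p-values of at most 3.82e-06 and 8.85e-05 (edgeR glmTreat). miR-7b (1.12 ± 0.28), miR-375 (0.97 ± 0.32), miR-217 (0.91 ± 0.24) and miR-216b (0.34 ± 0.18) were not called. The median over all miRNAs was 0.29 here, and 0.74 with library size alone. Beside miR-216a, all 5 miRNAs of the intestinal list and miR-122 also rose in Ovary, where the intestinal list summed to 6923 to 12101, against 579 to 2459 in Testis, and the part of other tissue in the difference was not tested.

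Whether the female over male change differed between organs was tested directly, with the quasi-likelihood F-test of edgeR and no fold change threshold. Between brain and gut 1 of the 6 members differed, where 10.1% of all miRNAs did. It was miR-375, with -2.08 in brain and -0.48 in gut (log2), a difference of -1.60 ± 0.43 (SE; adjusted p = 0.0154, edgeR), which was -1.42 without the second Male Brain library (adjusted p = 0.0604, edgeR). Between brain and liver 4 of 6 differed, namely miR-7a, miR-216a, miR-216b and miR-217, where 37.4% of all miRNAs did. Between gut and liver 2 of 6 differed, namely miR-7a and miR-217, where 26.5% of all miRNAs did. This count was 0 without the first Male Liver library and 4 without the first Female Liver library.

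**Figure D3:**
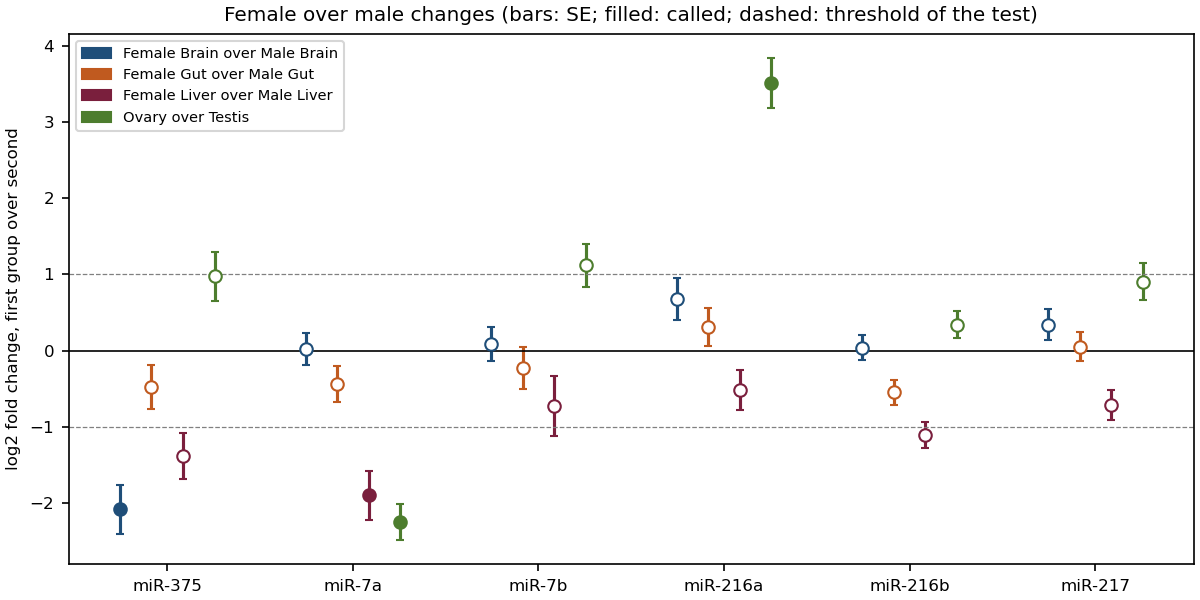
Log2 fold changes of the 6 miRNAs, female over male, in brain, gut, liver and gonads, with SE as bars, from the fit of all 32 libraries. Filled points were called against a log2 fold change of 1 (dashed lines), namely miR-375 in brain at -2.08, miR-7a in liver at -1.90 and in gonads at -2.24, and miR-216a in gonads at 3.51.

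Ratios of members within a library do not depend on the scaling between libraries, so they were compared next, with 0.5 added to each count. The ratio of miR-216a to miR-216b was 0.121, 0.123 and 0.109 in Female Gut, against 0.0688, 0.0629 and 0.0629 in Male Gut. It was 0.0987, 0.0992 and 0.0847 in Female Liver, against 0.0667, 0.0570 and 0.0689 in Male Liver. In brain it was 0.0613, 0.0536 and 0.0412 in Female Brain, against 0.0348, 0.0318 and 0.0329 in Male Brain. In 3 of 3 organs every female library was above every male library.

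Over these organs the ratio of miR-216a to miR-216b was 1.60-fold higher in females, a difference of 0.68 on the log2 scale (two-sided exact permutation test with the sexes exchanged within each organ, p = 0.00025, the smallest that the 8000 exchanges can give, and 0.00163 adjusted over 13 ratio tests). Leaving out any one library gave 0.64 to 0.73. The test takes the libraries of different organs as separate pools, which the labels do not state for organs of one sex. Within a single organ no p below 0.1 can be reached with 3 libraries against 3. The gonads, for which this ratio was not tested, had 0.473, 0.559 and 0.857 in Ovary and 0.0363, 0.0927 and 0.0868 in Testis.

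The ratio of miR-217 to miR-216b also differed between the sexes. It was 0.497, 0.466 and 0.400 in Female Gut, against 0.304, 0.307 and 0.290 in Male Gut. In liver it was 0.418, 0.311 and 0.381 in Female Liver, against 0.271, 0.269 and 0.297 in Male Liver. Brain had far lower ratios, at 0.0798, 0.0902 and 0.0936 in Female Brain and 0.0725, 0.0662 and 0.0755 in Male Brain. Female libraries were above male libraries in 3 of 3 organs, by 1.35-fold or 0.43 on the log2 scale (two-sided exact permutation test, p = 0.00025, the smallest possible, and 0.00163 adjusted). Both ratios share miR-216b and are thus not independent of each other. miR-216b itself was at -0.55 in Female Gut over Male Gut and -1.11 in Female Liver over Male Liver (log2). Medians over all miRNAs were -0.01 and -0.13 there. In Female Brain over Male Brain it was at 0.04, against a median of 0.02. Ratios of other miRNAs to miR-216b were not tested, so a higher female ratio is not shown to be particular to these members.

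The ratio of miR-7a to miR-7b separated the gonads. It was 1.35, 1.58 and 1.20 in Ovary, against 11.03, 16.2 and 16.2 in Testis, a difference of -3.38 on the log2 scale (two-sided exact permutation test, p = 0.1, the smallest that 3 against 3 libraries allow). In Female Brain it was 3.41 to 3.99 and in Male Brain 3.32 to 4.09. In Eye (0.282 to 0.760) and the Heart libraries (0.484 and 0.538), miR-7b was above miR-7a. Over brain, gut and liver the female ratio was lower by 0.45 on the log2 scale, which did not pass after adjustment (two-sided exact permutation test, p = 0.0272, 0.118 adjusted).

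**Figure D4:**
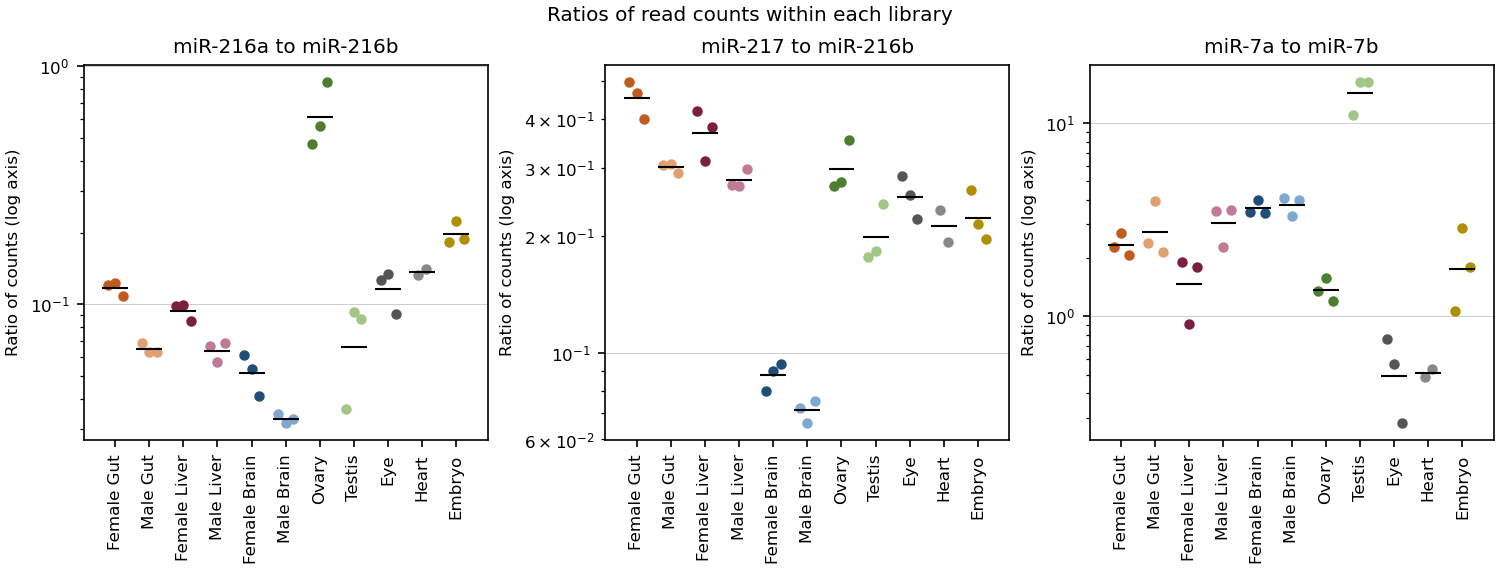
Ratios of read counts within each library (log axis, a different range in each panel), 1 point per library, with geometric means as lines. In gut, liver and brain each female group lies above its male group for miR-216a to miR-216b and miR-217 to miR-216b, and Testis stands apart for miR-7a to miR-7b at 11.03 to 16.2.

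For each member, the miRNAs with the most similar pattern over the 11 group means were looked up by Pearson correlation of log2 levels, leaving out miRNAs whose mean over all libraries was under 10 normalized counts, as a description. miR-375 was most like miR-1788-3p (r = 0.960), followed by miR-141 (r = 0.884) of the epithelial miR-200 family and miR-1788-5p (r = 0.883). miR-7a was most like miR-153b (r = 0.891), a brain miRNA, and miR-7b (r = 0.867), and miR-7b was also most like miR-153b (r = 0.920). miR-216a and miR-216b were both most like miR-217 (r = 0.854 and 0.901). miR-217 was most like miR-210-3p (r = 0.910), known in mammals for its response to low oxygen, then miR-216b and miR-216a. Without the Heart libraries, over 10 groups, the first place changed for miR-7b alone, to miR-2185-5p (r = 0.937). Libraries of one tissue share their cell make-up, and these correlations carry no test.

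A list of 16 other miRNAs known from mammalian islets, such as miR-9-5p, miR-124, miR-141, the miR-200 family and miR-184, showed how the wider set behaved. In Female Gut over Female Brain 6 of the 16 rose and 6 fell, and the same counts were found in Male Gut over Male Brain, with medians of -0.25 and -0.24 (log2). Of all miRNAs, 64.7% and 62.2% were called in these comparisons. Those that rose were miR-141, miR-200a, miR-200b, miR-200c, miR-429a and miR-429b, which are epithelial miRNAs in other organs too. Those that fell included miR-9-5p and miR-124, which are neural. In Female Gut over Female Liver 6 of the 16 rose, among them miR-141 by 2.17 ± 0.32 and miR-200c by 2.40 ± 0.32 (adjusted p = 0.000795 and 0.000137, edgeR glmTreat), where 23.9% of all miRNAs were called and 34 of 238 rose. In Female Brain over Male Brain, where 3.78% of all miRNAs were called, miR-96 alone of the list was called. It rose by 1.72 ± 0.23 (adjusted p = 0.0108, edgeR glmTreat), whereas miR-375 fell. miR-96 also belongs to the sensory list, which summed to 1349 to 2423 in Female Brain and 1163 to 1322 in Male Brain.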

How the data were processed

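Small RNA libraries of 11 zebrafish sample groups were analysed. The authors called bases with CASAVA 1.8.2, removed adapters with cutadapt, discarded reads under 18 nt and deposited read counts on 247 mature miRNAs of miRBase Release 19 from the miRDeep2 quantifier. The authors also deposited a normalized signal, in which TMM in edgeR scaled each library by a single factor. Columns were matched to samples by name, and 0 columns of other samples were present. Counts were fitted with edgeR 4.0.16 in R 4.3.3 (quasi-likelihood, TMM, 1 coefficient per group, 32 libraries). Changes were tested with glmTreat (log2 threshold of 1), and differences between organs with the quasi-likelihood F-test, with Benjamini-Hochberg adjustment over the 238 miRNAs with a count. Each SE was derived from the F statistic of no change. P-values measure the spread between pools. Counting limits of reads without molecular identifiers cover counting error only.

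Ratios were tested in Python 3.11.15 with exact permutation tests. The members and lists were chosen with earlier results of these data known. Named miRNAs were the members, the 3 most similar to each by Pearson correlation of log2(group mean + 1), and list members called. On simulated data, 40 of 40 miRNAs changed 6-fold were recovered among 237 for female over male liver with 0 false calls, and 40 of 40 with 1 false call for the difference between gut and liver. Simulated libraries of all groups shared the same mean profile, and the rarest miRNAs were not changed. Smaller changes, and groups that differ in make-up, were thus not covered. Alternatives were DESeq2 1.42.0 size factors and test, library size alone, filterByExpr, a likelihood ratio fit, a threshold set after testing, a replicate block, the compared groups alone and leaving out each library. The Heart libraries were left out after seeing the data. No member sequence is shown here.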

Additional observations from a re-analysis of the deposited data

Results flagged for a closer look

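The direct test of whether the female over male change of a member differed between organs gave 7 differences that passed edgeR's quasi-likelihood F-test. miR-375 was lower in females by more in brain (-2.08 on the log2 scale) than in gut (-0.48), a difference of -1.60 ± 0.43 (SE; adjusted p = 0.0154, edgeR), the only one of the 6 members, where 10.1% of all miRNAs differed. Without the second Male Brain library it was -1.42 (adjusted p = 0.0604, edgeR).

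Between brain and liver 4 of the 6 differed, where 37.4% of all miRNAs did. The difference was 1.92 for miR-7a, 1.19 for miR-216a, 1.14 for miR-216b and 1.06 for miR-217, each with a lower female value in liver and a female value at or above the male one in brain. For miR-375 it was -0.69 (adjusted p = 0.221, edgeR) and passed only without the third Male Brain library, at -1.11 (adjusted p = 0.00807, edgeR).

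Between gut and liver 2 of the 6 differed, where 26.5% of all miRNAs did, with 1.46 for miR-7a and 0.77 for miR-217. Both depended on single libraries. miR-7a did not pass without the first Male Liver library (0.96, adjusted p = 0.0760) or the second Female Liver library (1.33, adjusted p = 0.0530, edgeR). miR-217 had an adjusted p of 0.0400 (edgeR), which lay between 0.0130 and 0.0948 as single libraries were left out.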

How the results depend on the processing

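Among 978 values of single members under other settings, 928 stayed on their side of the threshold, 21 lost a call, 29 gained one and 0 reversed, and 15 changed sign with no call on either side. Of the gained calls, 14 came with library size alone and 8 with a fold change threshold set after testing. The counts of members called moved as follows. Female Brain over Male Brain gave 1, and 0 with the DESeq2 test or the compared groups alone (0 to 1 as single libraries were left out). Female Liver over Male Liver gave 1, 4 with library size alone, 3 with the threshold set after testing, and 0 with the DESeq2 test or the compared groups alone (0 to 1 as single libraries were left out). Female Gut over Female Liver gave 1, 6 with library size alone, 5 with the threshold set after testing, 0 with the DESeq2 test and 2 with the compared groups alone (0 to 1 as single libraries were left out). The difference of the sexes between brain and gut was called for 1, and for 2 with DESeq2 size factors (0 to 1 as single libraries were left out). Between gut and liver it was called for 2, for 1 with DESeq2 size factors and for 6 with library size alone (0 to 4 as single libraries were left out). The log2 ratio of miR-7a to miR-7b, female minus male, was -0.52 to -0.34 as single libraries were left out, with 5 of the 18 raising p above 0.05. The causes were not tested, apart from the fewer libraries of some settings. The highest and lowest groups held for 4 of 6 members with DESeq2 size factors and for 4 of 6 with library size alone. Leaving out the Heart libraries, chosen after seeing the data, changed no call of a member.

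Samples with the same replicate number did not clearly deviate together. Correlations of their deviations ran from -0.18 in Ovary over Testis to 0.22 in Female Gut over Male Gut. No comparison had every one over 0.1. Female and male samples cannot share fishes. In Male Gut over Male Liver, of one sex, they were 0.02 to 0.08. So few pairs per comparison cannot decide whether organs of one sex shared fishes. With the replicate block the number of members called was 1 in Female Brain over Male Brain, 1 in Female Liver over Male Liver and 2 in Ovary over Testis, and no count of members called moved. Depth limits miR-7a and miR-7b most, with 2 to 11 reads per Female Liver library.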

Other observations

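miR-1788-3p, whose pattern over sample groups was most like that of miR-375, was lower in 2 of 3 Female Brain libraries than in any Male Brain library. Both brain groups were among the groups by which it was picked, so this is no separate evidence on miR-375. It had 0.770, 0.481 and 1.46 normalized counts in Female Brain, from 1, 1 and 10 reads, against 4.70, 3.94 and 1.06 in Male Brain, from 7, 6 and 5 reads. The third Male Brain library was the lowest of its group for both miRNAs, but the reads of miR-1788-3p are too few to set groups apart. miR-141, another miRNA similar to miR-375 over the groups, had 174, 87.0 and 49.0 in Female Brain, against 66.5, 78.2 and 39.3 in Male Brain, with overlap and no lower female level. In gut miR-1788-3p had 47.3, 59.6 and 55.3 in Female Gut and 54.0, 58.4 and 44.1 in Male Gut, far above Female Liver at 12.5, 12.3 and 6.85.

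The ratio of miR-216a to miR-216b in Embryo was 0.182, 0.224 and 0.189, above all adult groups but Ovary. Eye had 0.127, 0.134 and 0.0915 and the Heart libraries 0.133 and 0.141. The labels give no sex for Eye and Heart, and the text of the study names male fish for both. Eye and Heart ratios lay above those of all Male Gut, Male Liver and Male Brain libraries, which were at most 0.0689. As the Heart libraries carried the sensory miRNAs of Eye, they are not taken as a tissue independent of Eye. The higher female ratio is thus a comparison within gut, liver and brain.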
